A study of Mus musculus with 7 samples.

Results

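The 32 endothelial identity genes are transcripts that endothelial cells, the cells lining blood vessels, use to form junctions, receive growth signals and hold their fate. They were taken by symbol from the 23420 gene rows of 1 table of mouse heart RNA, and each of the 32 matched exactly 1 row. Bulk RNA sequencing had been done on the ventricles of 7 mice labelled 3 to 6 weeks old and untreated. All 7 mice were labelled Pdcd1-/-, a deletion of the gene for the T cell checkpoint receptor PD-1 that both groups share. The 4 control mice were Ctla4+/+ and the 3 mice with ICI-myocarditis, a model of heart inflammation caused by immune checkpoint inhibitors, were Ctla4+/-. The protocol names flash-frozen ventricle while the tissue label reads whole heart, and the labels give neither strain nor sex nor a tissue-specific driver for either allele. The design text counts 4 and 3 mice and the labels number the samples within each group, with no word on litters or batches, so p-values measure the spread between these 7 samples.

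Endothelial cells of the heart lie mostly in capillaries, where VEGF receptors, the angiopoietin receptor Tek and adherens and tight junction proteins keep the vessel wall alive and sealed. Transcription factors of the ETS, SOX and KLF families act together on the enhancers and promoters of these genes. Capillary endothelium of heart muscle also takes up fatty acids for the cardiomyocytes, using Gpihbp1 to hold lipoprotein lipase and Fabp4 to carry the fatty acids.

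Libraries held 20931730 to 39037176 reads assigned to genes, and values are the authors' normalized counts, the reads of a gene over a size factor for its library. The part of each gene that was deleted is not given, so gene counts check no genotype. Pdcd1 reads were present in all 7 libraries, at 2.50 to 244 normalized counts in controls and 1096 to 1481 in ICI-myocarditis, and Ctla4 was at 29.2 to 113 and 251 to 373. Control 2 held the most Pdcd1 and Ctla4 of the controls. Heart muscle markers were abundant in every library (Myh6, the alpha myosin heavy chain, averaged 985522 normalized counts in controls).

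All 32 genes passed the filter of 10 or more normalized counts in 3 or more libraries, so none was lost for low counts. In ICI-myocarditis 6 of the 32 fell and none rose past an adjusted p of 0.05 in limma, a linear model fitted to log2(normalized count + 1) of all 15258 genes tested. The 6 were Kdr, Fabp4, Erg, Emcn, Tek and Cldn5, with log2 fold changes from -1.65 to -1.08. Over all genes tested, 4.00% were called lower and 11.7% higher. At an unadjusted p under 0.05, 16 of the 32 were lower and 1, Plvap, was higher, where 12.4% of all genes tested were lower and 17.7% higher at that threshold. None was called higher by edgeR or DESeq2, run on reads recovered from the normalized counts. EdgeR called the same 6 lower, where it called 3.49% of all genes lower, and DESeq2 called 13, where it called 8.40%. The log2 fold change was below 0 for 30 of the 32, against 51.9% of all genes tested, and its median was -0.79, against -0.02 for all genes. The groups did not overlap for 9 of the 32, all lower in ICI-myocarditis, where 11.3% of all genes tested were apart and lower and 17.3% apart and higher. In bulk tissue, fewer endothelial cells and less of these RNAs per endothelial cell cannot be told apart.

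The count of called genes moved with single libraries. It was 16 without control 4, 6 without control 2 and 5 without ICI-myocarditis 1, and the shares of all genes called lower in these fits were 3.55%, 7.19% and 2.23%. It was 3 without control 1 or ICI-myocarditis 2, where 1.60% and 2.21% of all genes were called lower, and 2 without control 3 or ICI-myocarditis 3, where 1.17% and 1.04% were. The calls over all genes thus fell too in the fits with 2 or 3 called, while those without control 4 fell as the count of the 32 went up. Erg was called in 20 of 20 alternatives and Emcn in 19 of 20, the exception being scaling to library totals (adjusted p = 0.0607 in limma). In the authors' deposited table, adjusted p-values of 12 of the 32 were below 0.05, all lower, where 7.35% of all genes with an adjusted p were called lower.

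The 250 bases before the transcription start are shown for the called genes that have a promoter in RefSeq's table for GRCm38.p6, since these genes fell together and ETS, SOX and KLF factors are among the 32. A promoter was given for 16 of the 32 genes and for 5 of the 6 called, and Fabp4 had none. For Erg, which has 3 listed starts, the outermost is shown. RefSeq starts can differ by some bases from the GENCODE gene positions given further on. Each runs 5′ to 3′ on the gene's strand, and capitals mark 4 motifs searched on both strands, AGGAAG and CGGAAG (ETS), AACAAT (SOX) and CCACCC (KLF), none of which overlaps another.
Erg (chr16:95586594-95586843, minus strand): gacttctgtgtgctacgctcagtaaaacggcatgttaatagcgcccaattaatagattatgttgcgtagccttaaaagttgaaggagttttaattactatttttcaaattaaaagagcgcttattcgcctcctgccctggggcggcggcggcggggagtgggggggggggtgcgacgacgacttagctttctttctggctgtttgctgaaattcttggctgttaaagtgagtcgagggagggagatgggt
Emcn (chr3:137340828-137341077, plus strand): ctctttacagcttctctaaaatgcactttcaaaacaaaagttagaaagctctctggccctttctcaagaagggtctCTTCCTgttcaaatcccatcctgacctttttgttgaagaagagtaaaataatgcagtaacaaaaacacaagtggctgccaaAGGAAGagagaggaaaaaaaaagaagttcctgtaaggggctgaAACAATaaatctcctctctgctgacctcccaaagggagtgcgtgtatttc
Cldn5 (chr16:18776597-18776846, plus strand): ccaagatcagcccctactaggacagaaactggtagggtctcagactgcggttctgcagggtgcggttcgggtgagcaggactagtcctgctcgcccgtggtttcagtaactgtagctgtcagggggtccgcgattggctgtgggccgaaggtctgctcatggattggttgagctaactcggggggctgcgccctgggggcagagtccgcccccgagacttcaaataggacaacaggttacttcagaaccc
Kdr (chr5:75978456-75978705, minus strand): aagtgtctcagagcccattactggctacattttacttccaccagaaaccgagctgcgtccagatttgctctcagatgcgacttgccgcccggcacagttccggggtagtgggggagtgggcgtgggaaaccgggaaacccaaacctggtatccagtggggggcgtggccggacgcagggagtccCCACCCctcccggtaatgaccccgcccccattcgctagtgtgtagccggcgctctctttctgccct
Tek (chr4:94739039-94739288, plus strand): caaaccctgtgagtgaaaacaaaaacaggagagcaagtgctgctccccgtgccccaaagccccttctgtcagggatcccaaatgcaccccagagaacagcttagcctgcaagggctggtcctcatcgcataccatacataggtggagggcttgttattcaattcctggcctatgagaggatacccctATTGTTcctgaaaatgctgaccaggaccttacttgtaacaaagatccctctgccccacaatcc

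The Emcn window held AGGAAG at 93 to 88 bases before the start and, on the other strand, at 174 to 169 bases before it, and AACAAT at 50 to 45. The Kdr window held CCACCC at 66 to 61 bases before the start, and the Tek window held AACAAT on the other strand at 63 to 58. No searched motif was in the Erg and Cldn5 windows. Of the 32851 windows of this length in the table, 39.2% held AGGAAG or CGGAAG, 9.42% AACAAT and 28.1% CCACCC, on either strand. Among the 16 endothelial identity genes with a window, 9 held an ETS motif, 2 the SOX motif and 7 the KLF motif. These letters are a description of the windows and show no binding.

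Of 8 junction and surface genes 2 fell in ICI-myocarditis, with 7 below 0 and a median log2 fold change of -0.87. Cldn5 (chr16:18776847-18778262, plus strand, GRCm38) encodes the main tight junction claudin of endothelium. It had 1247, 1501, 1204 and 763 normalized counts in controls 1 to 4 and 521, 598 and 508 in ICI-myocarditis 1 to 3. Every ICI-myocarditis library lay below every control, the nearest control being control 4. Cldn5 fell 2.12-fold (-1.08 on the log2 scale, SE 0.242, adjusted p = 0.0174 by limma). It passed in 15 of 20 alternatives, with adjusted p-values up to 0.0959 by limma, and missed with scaling to library totals and without control 1, control 3, ICI-myocarditis 1 or ICI-myocarditis 3.

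Emcn (chr3:137341067-137432185, plus strand), whose sialomucin endomucin coats venous and capillary endothelium, had 1539.6, 1999.6, 1880.4 and 1175 normalized counts in controls 1 to 4 and 637, 799 and 739.6 in ICI-myocarditis 1 to 3. The groups did not overlap, and the 3 ICI-myocarditis libraries lay close together. Emcn fell 2.23-fold (-1.16 on the log2 scale, SE 0.223, adjusted p = 0.00951 by limma).

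Pecam1 and Esam, which encode adhesion molecules of endothelial contacts, did not overlap between the groups but missed the threshold. Pecam1 had 11031, 11931, 9786 and 6121 normalized counts in controls 1 to 4 and 5069, 5870.1 and 6084 in ICI-myocarditis 1 to 3. Control 4 was barely above ICI-myocarditis 3, while controls 1 to 3 were well above (-0.74 on the log2 scale, SE 0.274, adjusted p = 0.105 by limma). Esam had 4094, 4638, 2917 and 1903 normalized counts in controls 1 to 4 and 1886, 1849 and 1736 in ICI-myocarditis 1 to 3. Its ICI-myocarditis libraries were nearly equal and control 4 sat just above them (-0.81 on the log2 scale, SE 0.298, adjusted p = 0.0995 by limma).

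Cdh5, encoding the adherens junction protein VE-cadherin, had 19978, 18100.2, 13191 and 7631 normalized counts in controls 1 to 4 and 4605, 8304 and 7895 in ICI-myocarditis 1 to 3. Control 4 fell inside the ICI-myocarditis range, so the groups overlapped (-1.04 on the log2 scale, SE 0.379, adjusted p = 0.098 by limma). Podxl, a sialomucin of the luminal surface, had the same arrangement, at 9626 ± 3867 (SD, n = 4) and 4906 ± 1477 (SD, n = 3) normalized counts in controls and ICI-myocarditis (-0.92 on the log2 scale, SE 0.379, adjusted p = 0.138 by limma). Cd34, a sialomucin shared with fibroblasts and blood progenitors, differed little, at 6044 ± 808 (SD, n = 4) and 4880.3 ± 382 (SD, n = 3) (-0.30 on the log2 scale, SE 0.208, adjusted p = 0.374 by limma).

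Plvap, which forms the diaphragms of fenestrated and venous endothelium, stood on the other side of 0. It had 477, 635, 679 and 405 normalized counts in controls 1 to 4 and 669, 767 and 978 in ICI-myocarditis 1 to 3. ICI-myocarditis 2 and 3 were above all controls, and ICI-myocarditis 1 lay just under control 3. The difference missed the threshold (0.56 on the log2 scale, SE 0.241, adjusted p = 0.151 by limma).

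**Figure D1:**
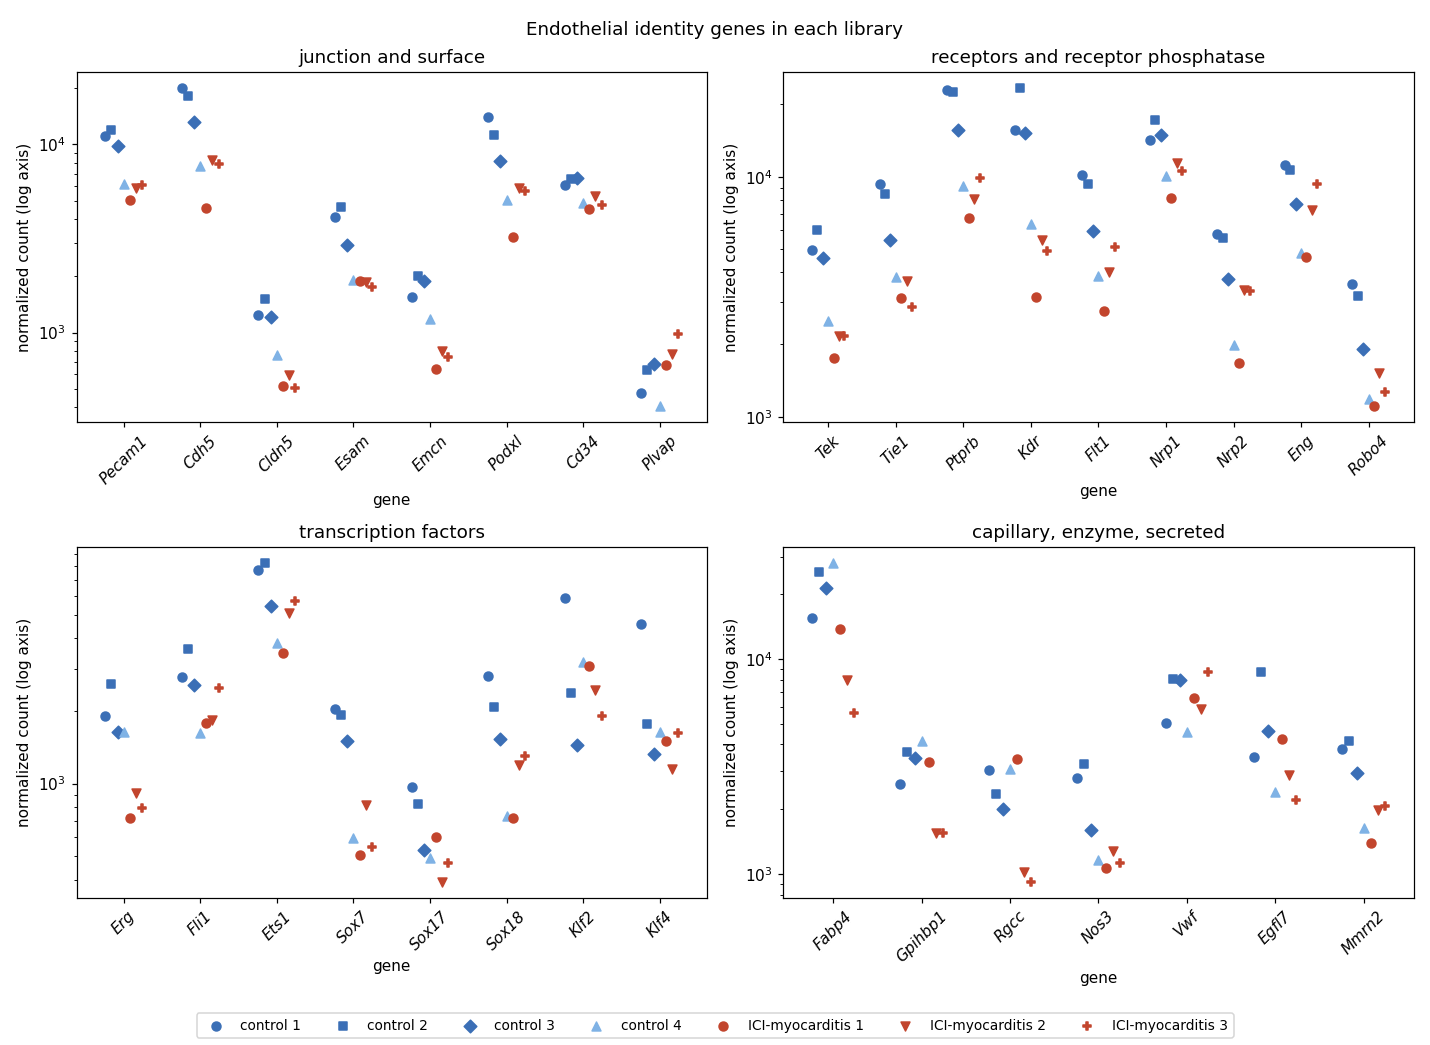
Normalized counts of the 32 endothelial identity genes (log axis) in each of 7 libraries, in 4 panels by role; blue marks are controls, with control 4 in light blue, and red marks are ICI-myocarditis libraries. Control 4 was the lowest control for 26 of the 32 genes and lay within the ICI-myocarditis range for 17, shares that were not counted over all genes. Erg, Emcn, Cldn5, Kdr, Tek and Fabp4 had no overlap between groups.

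Receptor genes were all below 0, with 2 of 9 called and a median log2 fold change of -0.84. Kdr (chr5:75932827-75978458, minus strand) encodes VEGFR2, the main signalling receptor for VEGF-A in endothelium, and had the largest decrease of the 32. It had 15634, 23454, 15178 and 6347 normalized counts in controls 1 to 4 and 3164, 5432 and 4890.2 in ICI-myocarditis 1 to 3. The spread was wide in both groups, and control 4 was at 0.351 of the mean of controls 1 to 3, yet still above the 3 ICI-myocarditis libraries. Kdr fell 3.13-fold (-1.65 on the log2 scale, SE 0.424, adjusted p = 0.0301 by limma). It passed in 14 of 20 alternatives and missed with scaling to library totals (adjusted p = 0.0852 in limma) and without any 1 of control 1, control 3 or the 3 ICI-myocarditis libraries (adjusted p up to 0.0987).

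Flt1, encoding VEGFR1, which binds VEGF-A tightly and signals weakly, had 10209, 9346, 5963 and 3869 normalized counts in controls 1 to 4 and 2744, 3996 and 5105 in ICI-myocarditis 1 to 3. Its groups overlapped through control 4 and ICI-myocarditis 2 and 3 (-0.84 on the log2 scale, SE 0.371, adjusted p = 0.165 by limma). The co-receptors Nrp1 and Nrp2, which bind VEGF and semaphorins, had log2 fold changes of -0.48 and -0.56 (SE 0.268 and 0.407, limma adjusted p = 0.27 and 0.397). For both, control 4 was inside the ICI-myocarditis range.

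The angiopoietin receptor Tek (chr4:94739289-94874976, plus strand) had 4939, 5970.5, 4603 and 2512 normalized counts in controls 1 to 4 and 1758, 2165 and 2164 in ICI-myocarditis 1 to 3. No ICI-myocarditis library reached a control, although control 4 came close. Tek fell 2.13-fold (-1.09 on the log2 scale, SE 0.293, adjusted p = 0.0357 by limma). It passed in 13 of 20 alternatives, with adjusted p-values up to 0.138 by limma, and missed without control 1, control 3 or any 1 of the ICI-myocarditis libraries, with scaling to library totals and with limma without trend and robust variance. Its partner receptor Tie1 had 9334, 8466, 5440.2 and 3819.8 normalized counts in controls 1 to 4 and 3109, 3659.8 and 2875 in ICI-myocarditis 1 to 3. The groups were again apart, by a narrow gap between control 4 and ICI-myocarditis 2, but Tie1 missed the threshold (-0.99 on the log2 scale, SE 0.321, adjusted p = 0.0674 by limma). Ptprb, encoding the phosphatase VE-PTP that restrains Tek and Kdr, had 22906, 22615, 15656 and 9182 normalized counts in controls 1 to 4 and 6748, 8043 and 9884 in ICI-myocarditis 1 to 3, with control 4 below ICI-myocarditis 3 (-1.02 on the log2 scale, SE 0.355, adjusted p = 0.0846 by limma).

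Robo4, which stabilizes vessels, and Eng, a TGF-beta co-receptor, did not pass. For Robo4 the groups averaged 2464 ± 1107 (SD, n = 4) and 1294 ± 208 (SD, n = 3) normalized counts (-0.81 on the log2 scale, SE 0.364, adjusted p = 0.17 by limma). Eng had 11156, 10709, 7686 and 4817 normalized counts in controls 1 to 4 and 4611, 7253 and 9304 in ICI-myocarditis 1 to 3. Its libraries overlapped widely, ICI-myocarditis 1 being the lowest of the 7 and ICI-myocarditis 3 above controls 3 and 4 (-0.27 on the log2 scale, SE 0.361, adjusted p = 0.674 by limma).

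Of 8 transcription factor genes only Erg was called, all 8 were below 0 and the median log2 fold change was -0.52. Erg (chr16:95359169-95586593, minus strand) encodes an ETS factor that sustains endothelial genes such as Cdh5. It had 1907, 2588, 1639 and 1644 normalized counts in controls 1 to 4 and 719, 918 and 791 in ICI-myocarditis 1 to 3. Control 4 was level with control 3 for this gene, and even the lowest control was well above the highest ICI-myocarditis library. Erg fell 2.37-fold (-1.25 on the log2 scale, SE 0.214, adjusted p = 0.00657 by limma), the smallest p-value of the 32, with a largest adjusted p of 0.0348 over its alternatives.

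The other ETS genes, Fli1 and Ets1, which leukocytes also express, had log2 fold changes of -0.34 and -0.37 (SE 0.28 and 0.315, limma adjusted p = 0.468 and 0.475). Fli1 had 2762, 3619, 2566 and 1618 normalized counts in controls 1 to 4 and 1781, 1829 and 2494 in ICI-myocarditis 1 to 3, so that control 4 was the lowest of all 7 libraries. Leukocyte markers moved with the group. Of 9 listed, 8 were called higher and none was at 0. Their summed level was 9563 to 17324 normalized counts in controls and 41686 to 65197 in ICI-myocarditis. Among controls, control 2 held the most Cd3e, at 250 normalized counts against 6.26 to 20.2. It also held the most Ptprc, at 2874 against 483 to 1108. The part of leukocytes in the values of Fli1 and Ets1 was not tested.

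The SOX genes Sox7, Sox17 and Sox18 form 1 family that acts in arterial and general endothelial fate. Sox7 had 2047, 1926, 1499 and 597 normalized counts in controls 1 to 4 and 506, 815 and 544 in ICI-myocarditis 1 to 3. Control 4 was far below controls 1 to 3 and below ICI-myocarditis 2 (-1.17 on the log2 scale, SE 0.411, adjusted p = 0.0877 by limma). Sox18 had the same arrangement (-0.62 on the log2 scale, SE 0.424, adjusted p = 0.367 by limma), and Sox17, the least abundant SOX gene here, had 966, 826, 529 and 493 normalized counts in controls 1 to 4 and 601, 391 and 467 in ICI-myocarditis 1 to 3 (-0.50 on the log2 scale, SE 0.284, adjusted p = 0.279 by limma). Without control 4 Sox7 passed (log2 fold change -1.57, limma adjusted p = 0.00733).

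Klf2 and Klf4, which blood flow induces and which macrophages and T cells also use, varied most among controls. Klf2 had 5885, 2366, 1447 and 3194 normalized counts in controls 1 to 4 and 3079.7, 2449 and 1906 in ICI-myocarditis 1 to 3, and Klf4 had 4606, 1769, 1324 and 1634 normalized counts in controls 1 to 4 and 1497, 1155 and 1625 in ICI-myocarditis 1 to 3. Control 1 was the highest library for both genes, and controls 2 to 4 were within or near the ICI-myocarditis range. Neither passed, Klf2 at -0.22 (SE 0.42, limma adjusted p = 0.776) and Klf4 at -0.54 (SE 0.391, limma adjusted p = 0.4), and the sign of Klf2 turned without control 1 (0.13).

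**Figure D2:**
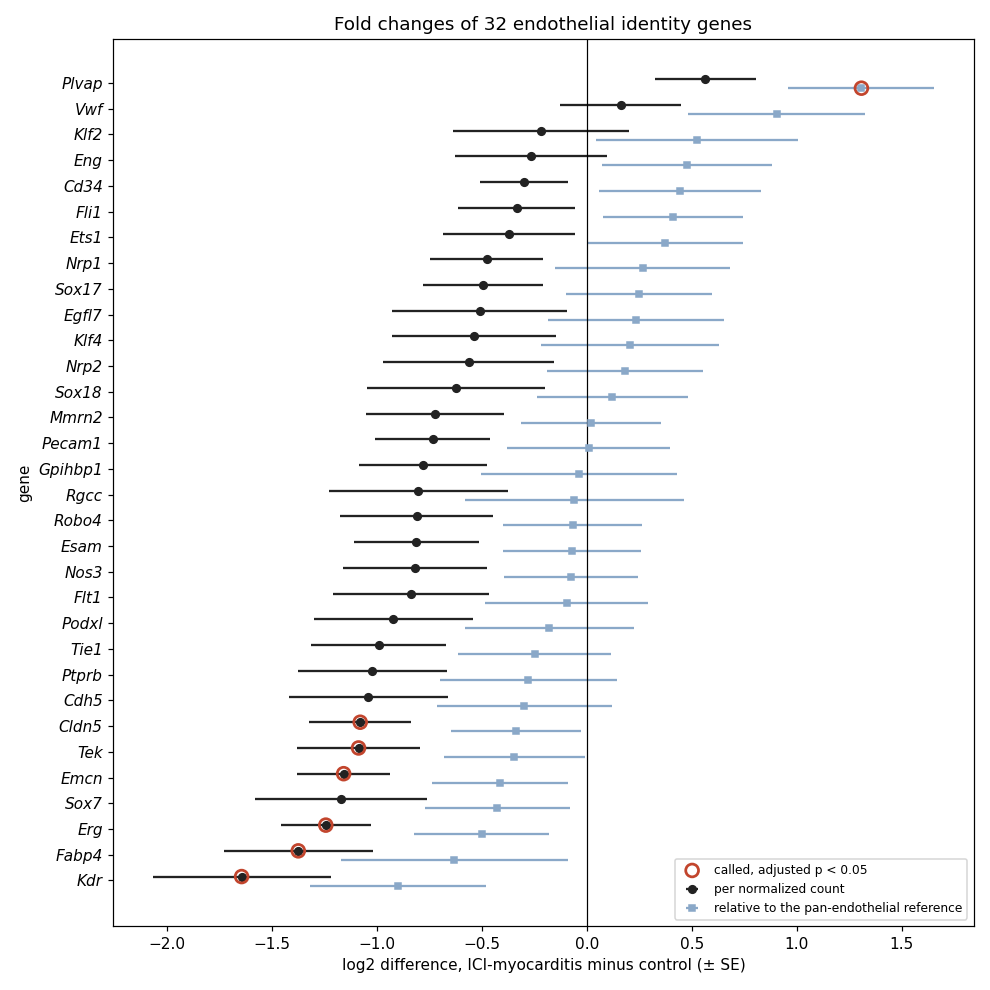
Log2 difference between ICI-myocarditis and control (x axis, ± SE) for the 32 genes (y axis), as fitted to normalized counts (black circles) and after subtracting the mean of 28 other endothelial genes in each library (blue squares); red rings mark adjusted p below 0.05. The black values ran from -1.65 for Kdr to 0.56 for Plvap with 6 rings, and the blue values centred near 0 with 1 ring, at Plvap.

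Genes of capillary lipid uptake, the vessel enzyme Nos3 and secreted proteins made up the last group, with 1 of 7 called and a median log2 fold change of -0.78. Fabp4 (chr3:10204088-10208576, minus strand) had 15568, 25549.7, 21388 and 27932 normalized counts in controls 1 to 4 and 13788, 7959 and 5612 in ICI-myocarditis 1 to 3. Control 4 was the highest library, ICI-myocarditis 1 approached control 1, and the groups did not overlap. Fabp4 fell 2.60-fold (-1.38 on the log2 scale, SE 0.356, adjusted p = 0.0304 by limma). It passed in 15 of 20 alternatives, with adjusted p-values up to 0.135 by limma. It missed without control 3, control 4, ICI-myocarditis 2 or ICI-myocarditis 3, and with a block for the replicate number. Fabp4 is also an adipocyte gene. The 4 adipocyte markers summed to 8.07 to 159 normalized counts in controls, the highest value being in control 3, and 3.82 to 7.97 in ICI-myocarditis. None of these 4 passed the filter on low counts. In control 3 Cfd was at 92.7, Adipoq at 41.3 and Plin1 at 22.3 normalized counts. In control 4, the library with the most Fabp4, Adipoq, Plin1 and Lep were at 0. Cfd was at 8.76 there, above controls 1 and 2 (3.02 and 3.70). The part of adipocytes in the Fabp4 values was not tested.

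Gpihbp1 had 2613, 3698, 3473 and 4153 normalized counts in controls 1 to 4 and 3325, 1546 and 1552 in ICI-myocarditis 1 to 3, and Rgcc, a cell cycle regulator marking capillary endothelium, had 3039.8, 2345, 1997 and 3059 normalized counts in controls 1 to 4 and 3415, 1016 and 916 in ICI-myocarditis 1 to 3. For both genes ICI-myocarditis 2 and 3 were below all controls. ICI-myocarditis 1 lay among the controls for Gpihbp1 and above all of them for Rgcc. Neither passed with all libraries (-0.78 and -0.80 on the log2 scale, limma adjusted p = 0.119 and 0.244). Without ICI-myocarditis 1 both did, at -1.15 and -1.41 (limma adjusted p = 0.0251 and 0.0146).

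Nos3, the endothelial nitric oxide synthase, had 2798, 3249, 1597 and 1162 normalized counts in controls 1 to 4 and 1061, 1278 and 1117 in ICI-myocarditis 1 to 3. ICI-myocarditis 2 was above control 4, and the other ICI-myocarditis libraries were below every control (-0.82 on the log2 scale, SE 0.342, adjusted p = 0.144 by limma). Mmrn2, a matrix protein that binds VEGF, had 3134 ± 1121 (SD, n = 4) and 1814 ± 371 (SD, n = 3) (-0.72 on the log2 scale, SE 0.328, adjusted p = 0.174 by limma), and Egfl7, a secreted vessel matrix protein, had 4792 ± 2746 (SD, n = 4) and 3107 ± 1026 (SD, n = 3) (-0.51 on the log2 scale, SE 0.416, adjusted p = 0.458 by limma). Control 2 held the most Egfl7, 8681 normalized counts.

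Vwf, the von Willebrand factor stored in endothelial granules, had 5028, 8109, 8027 and 4565 normalized counts in controls 1 to 4 and 6602, 5846 and 8683 in ICI-myocarditis 1 to 3. The groups were interleaved and the difference was small (0.16 on the log2 scale, SE 0.288, adjusted p = 0.761 by limma). Platelets also carry Vwf. Of 5 platelet and megakaryocyte markers 1, Gp1ba, was called lower (-1.05, limma adjusted p = 0.0124), and the 5 summed to 717 to 1192 normalized counts in controls and 383 to 580.1 in ICI-myocarditis, with none at 0. Their part in the level of Vwf was not tested.

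Levels were compared between genes as normalized counts per kilobase of the principal coding transcript in GENCODE M21. In controls the order ran from Fabp4 (25234 ± 6046), by far the highest, through Gpihbp1 (4223 ± 783), Nrp1 (3919 ± 823), Cdh5 (3686 ± 1384) and Egfl7 (3445 ± 1974) to Sox7 (459.8 ± 199), Plvap (276 ± 65.1) and Sox17 (225 ± 73.5). Apart from Fabp4, neighbours in this order differed by less than the larger of their SDs. In ICI-myocarditis Fabp4 was still first (10178 ± 4698) and Sox17 last (156 ± 33.9). Kdr went from rank 8 to rank 16 (mean 2558 to 759) and Vwf from rank 26 to rank 14 (728 ± 215 to 797 ± 166).

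Control 4 stood apart from the other controls in these genes. The 32 genes summed to 221154, 242256 and 179692 normalized counts in controls 1 to 3, 130364 in control 4 and 100427, 112536 and 114721 in ICI-myocarditis 1 to 3. Control 4 was thus closer to the ICI-myocarditis libraries than to the other controls. Its level was below all of controls 1 to 3 for 26 of the 32 genes, as against 24, 29 and 26 genes in ICI-myocarditis 1 to 3. The same shares over all genes tested were not counted, so these counts do not show that control 4 was apart in these genes alone. Leukocyte markers did not set control 4 apart, at 13655 normalized counts, between control 1 and control 3. The 7 cardiomyocyte markers summed to 2507530 normalized counts in control 4, the most of all libraries, against 1254129 to 2207565 in controls 1 to 3. Of these markers Myh6 and Ryr2 were highest in control 1. The part of cardiomyocytes in the levels of control 4 was not tested.

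Control 4 was not the lowest control for Erg, Klf2, Klf4, Fabp4, Gpihbp1 and Rgcc. Klf4, Erg and Klf2 were still at 0.637, 0.804 and 0.988 of the mean of controls 1 to 3. Fabp4, Gpihbp1 and Rgcc were higher there than in any other control, at 1.34, 1.27 and 1.24 times the mean of controls 1 to 3. These 3 genes were also highest in ICI-myocarditis 1 within its group. They have the shortest principal transcripts of the 32, at 896, 825 and 918 bases. Emcn, Egfl7, Cldn5 and Sox18, the next in length at 1357, 1391, 1416 and 1620 bases, went the other way in control 4. They were at 0.650, 0.427, 0.579 and 0.344 of the mean of controls 1 to 3. The part of transcript length in these levels was not tested. Across all genes with a known length, taken from the longest transcript, control 4 and ICI-myocarditis 1 carried relatively more RNA of short transcripts. By this length Fabp4, Gpihbp1 and Rgcc have 4231, 1652 and 918 bases, so Fabp4 is not among the short ones. The median deviation from the mean of all libraries in long transcripts (4733 bases or more) minus that in short ones (2103 bases or fewer) was -0.25 and -0.35 on the log2 scale in these 2 libraries, and -0.03 to 0.20 in the other 5. After the length and GC trend of each library was removed, an alternative chosen after the values were seen, 8 of the 32 genes were called lower, the same 6 with Tie1 and Ptprb, where 5.38% of all genes tested were called lower. That removal used the longest transcript, so Fabp4 entered at 4231 bases and Emcn at 3521. It therefore did not treat these 2 genes as short.

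To ask whether single genes departed from endothelial transcripts at large, the mean log2 level of 28 other pan-endothelial genes was subtracted in each library. These 28 genes, none of them among the 32, had a median log2 fold change of -0.85, with 6 called lower. The ratio of the summed 32 genes to the summed 28 was 1.77 to 1.97 in controls and 1.75 to 1.98 in ICI-myocarditis, so the summed lists moved together. Control 4 was at 1.96, but Fabp4, highest there, made up 27932 of its 130364 normalized counts. In controls 1 to 3 Fabp4 made up 15568 to 25550 of 179692 to 242256. The ratio without Fabp4 was not taken. With the mean of the 28 subtracted, the median difference of the 32 was -0.05, that of all genes tested 0.72, and 0.406% of all genes were called lower and 25.5% higher. By limma none of the 32 was called lower, and 1, Plvap, was called higher. At an unadjusted p under 0.05, 1, Kdr, was lower (0.885% of all genes were lower at that threshold). Of the 28 genes themselves 1 was called lower, Pcdh12 (-1.225, limma adjusted p = 0.0192), and 1 higher, Acvrl1 (1.066, limma adjusted p = 0.0314).

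Relative to the 28 genes, Plvap stood at -2.46, -2.27, -1.58 and -1.83 log2 units in controls 1 to 4 and -0.82, -0.94 and -0.43 in ICI-myocarditis 1 to 3. All 3 ICI-myocarditis libraries were above all 4 controls. The difference was 1.31 (SE 0.348, limma adjusted p = 0.0133). It missed the threshold without ICI-myocarditis 1 (0.0508), without ICI-myocarditis 3 (0.0886) and against the median of the 28 genes (0.0531).

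Vwf had 0.93 to 1.98 in controls and 1.99 to 2.72 in ICI-myocarditis on the same scale, with no overlap by a narrow gap, and missed the threshold (difference 0.90, SE 0.421, limma adjusted p = 0.124). Kdr had 2.57, 2.94, 2.90 and 2.14 in controls and 1.42, 1.88 and 1.89 in ICI-myocarditis. Its ICI-myocarditis libraries were the lowest 3 of 7, and the difference missed the threshold (difference -0.90, SE 0.419, limma adjusted p = 0.122). Without control 4, Kdr was called lower (-1.07, limma adjusted p = 0.0219) and Vwf higher (0.96, limma adjusted p = 0.0458). In that fit 0.513% of all genes were called lower and 55.8% higher. Pecam1 was level with the 28 genes (difference 0.01, SE 0.387, limma adjusted p = 0.99). Erg had a difference of -0.50 (SE 0.322, limma adjusted p = 0.247), with all ICI-myocarditis libraries below all controls.

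**Figure D3:**
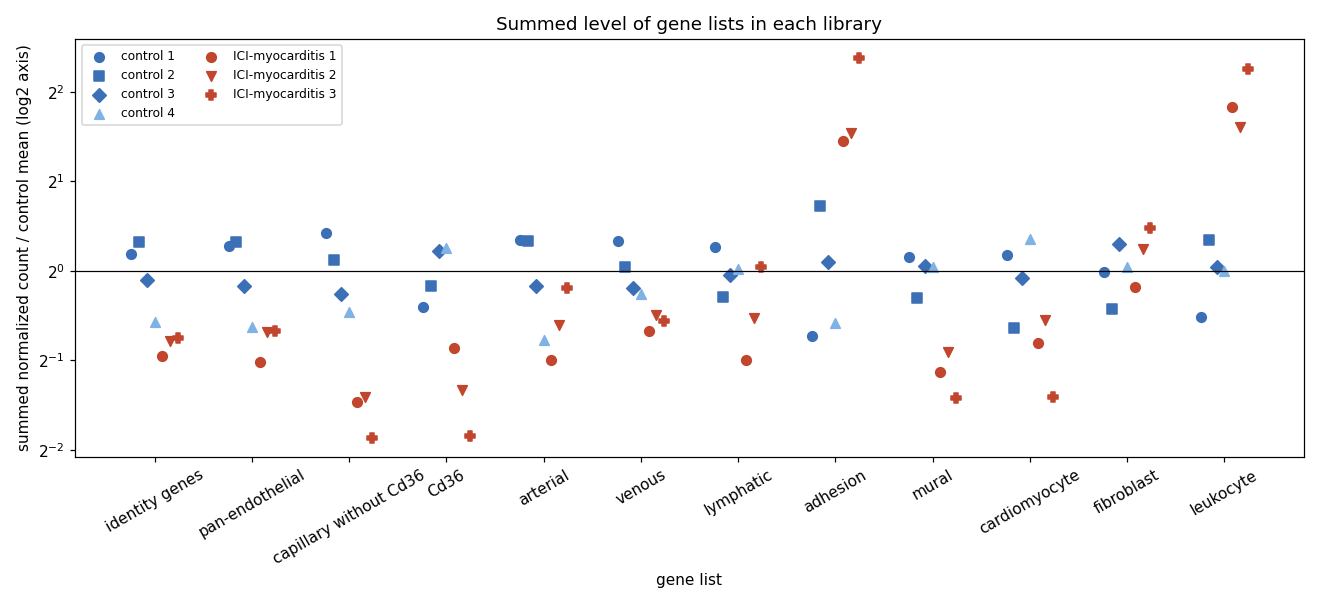
Summed normalized counts of each gene list in each library, divided by the control mean of that list (log2 axis); marks and colours are as in the plot of single genes. The 32 identity genes and the 28 pan-endothelial genes moved together and control 4 lay near the ICI-myocarditis libraries on both. For the 9 capillary genes other than Cd36, control 4 was the lowest control and all ICI-myocarditis libraries were lower still, and for Cd36 control 4 was the highest library.

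Lists of endothelial subtypes outside the 32 were read in the fit to normalized counts, with no reference subtracted. Of 10 capillary genes 8 were called lower, with a median log2 fold change of -1.28. Relative to the 28 genes 2 of the 10, Aqp7 and Btnl9, were called lower, with a median of -0.53. Aqp7, a glycerol channel, went from 2499.5 ± 728 to 515 ± 172 normalized counts (-2.28, limma adjusted p = 0.00324), Btnl9 from 2194 ± 849.8 to 459 ± 76.8 normalized counts (-2.19, limma adjusted p = 0.00376) and the water channel Aqp1 from 20113 ± 7408 to 5504 ± 1311 normalized counts (-1.84, limma adjusted p = 0.00689). Control 4 was the lowest control for 8 of the 10, a share that was not counted over all genes. Cd36, the fatty acid translocase and the most abundant of them, had 47653, 55967, 73811 and 75084 normalized counts in controls 1 to 4 and 34841, 25212 and 17603 in ICI-myocarditis 1 to 3. The other 9 summed to 48707, 39374, 30372 and 26327 in controls and 13091, 13619 and 9955 in ICI-myocarditis, so control 4 was again the lowest control but clear of the ICI-myocarditis libraries. Cd36 and the split of the sum were chosen after their values were seen. The cardiomyocyte markers also summed highest in control 4, at 2507530 normalized counts, and the part of cardiomyocytes in Cd36 was not tested. Of 11 arterial genes 2 were called lower, with a median of -0.32. They were Hey1, a Notch target (-1.54, limma adjusted p = 0.0106), and Efnb2, an ephrin of arterial endothelium (-1.12, limma adjusted p = 0.0302). Relative to the 28 genes none of the 11 was called by limma, with 1 lower and 1 higher at an unadjusted p under 0.05 and a median of 0.42.

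Other cell types of the tissue moved beside these genes. The 7 cardiomyocyte markers were all below 0 with a median of -0.92, none called by limma and 2 at an unadjusted p under 0.05, and summed to 1254129 to 2507530.0 normalized counts in controls and 736398 to 1339974 in ICI-myocarditis. Of 8 mural cell markers, from pericytes and smooth muscle, 4 were called lower, with a median of -0.81 and sums of 54349 to 74809.6 and 25106 to 35878. Abcc9, the most abundant of the 8 in controls, had 23427, 15602, 25222 and 28608 normalized counts in controls 1 to 4. It was lowest in control 2, as were the cardiomyocyte marker Ryr2 and the mural markers Rgs5 and Kcnj8. The part of cardiomyocytes in the mural sums was not tested. Of 7 fibroblast markers 1 was called higher, with a median of 0.27 and sums of 62950.3 to 103858 and 74408 to 117790.5. None of these markers was at 0 in all libraries. Their part in the levels of the endothelial genes was not tested.

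Related genes were compared as log2 ratios within each library, for 8 pairs, by exact permutation of the libraries (two-sided, 35 splits, smallest possible p 0.0286). The Erg over Fli1 ratio was -0.53, -0.48, -0.65 and 0.02 in controls 1 to 4 and -1.31, -0.99 and -1.66 in ICI-myocarditis 1 to 3. All ICI-myocarditis libraries were below all controls, by 0.91 on average (exact permutation p = 0.0286, adjusted over the 8 pairs 0.114). Sox7 over Sox18 was also fully apart, at -0.22 ± 0.187 (SD, n = 4) and -0.77 ± 0.416 (SD, n = 3), with the same exact permutation p of 0.0286 and adjusted 0.114. Kdr over Flt1 was 0.61, 1.33, 1.35 and 0.71 in controls and 0.21, 0.44 and -0.06 in ICI-myocarditis, without overlap (difference -0.81, exact permutation p = 0.0571, adjusted 0.152). None of the 8 pairs passed after adjustment, 2 having an unadjusted exact permutation p under 0.05.

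The other 5 ratios overlapped between groups. Tek over Tie1 differed by -0.10 (exact permutation p = 0.600, adjusted 0.751), Klf2 over Klf4 by 0.32 (0.343, adjusted 0.549), Sox7 over Sox17 by -0.68 (0.171, adjusted 0.343) and Sox17 over Sox18 by 0.13 (0.657, adjusted 0.751). Nrp1 over Nrp2 differed by 0.08, the largest exact permutation p of the 8. With 4 and 3 libraries, these values do not show that the members of a pair act alike.

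**Figure D4:**
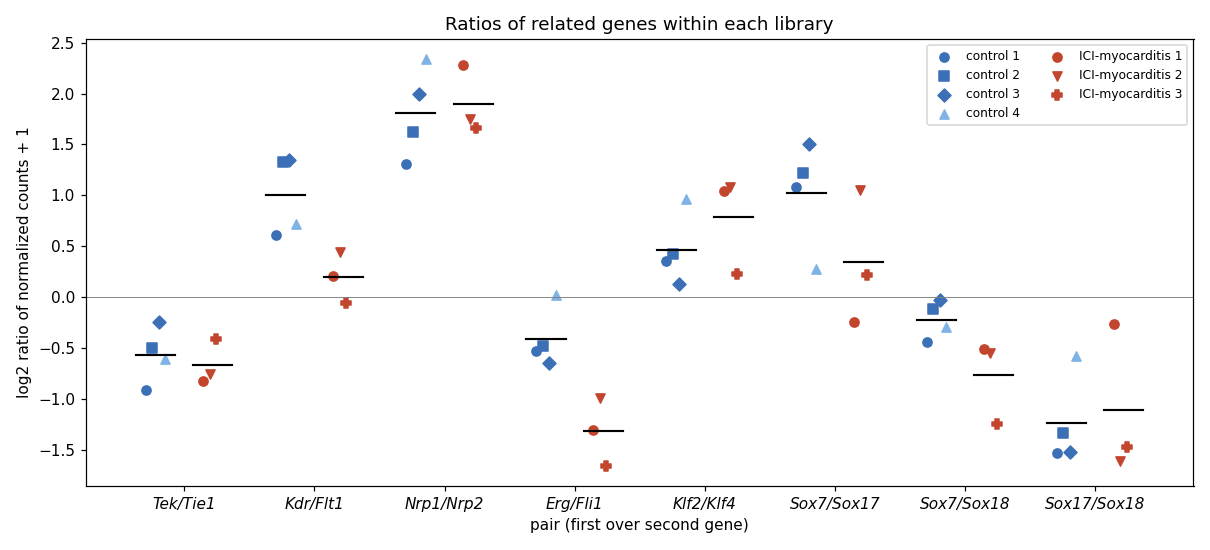
Log2 ratio of normalized counts + 1 (y axis) for 8 pairs of related genes (x axis), 1 mark per library, controls to the left and ICI-myocarditis to the right within each pair, with black bars at group means. Erg/Fli1, Kdr/Flt1 and Sox7/Sox18 had no overlap between groups, and the other 5 pairs overlapped.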

How the data were processed

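Ventricular RNA of 4 control and 3 ICI-myocarditis mice was measured by bulk RNA sequencing, from stranded total RNA libraries per the labels' protocols, with groups taken from the genotype labels. Reads were aligned with STAR 2.7.3 to GRCm38 (mm10), per the submitters' processing notes. The counter, annotation and strand setting are not given in the sources used here, so reads of overlapping genes cannot be told apart. The deposited signal values are the authors' normalized counts, and every value was a whole multiple (within 0.01 read) of 1 step per library, which gave back the reads (20931730 to 39037176 per library). The authors' log2 fold changes with their errors, the test score and the p-values of their comparison stand in the same table, per the file headers, and only their p-values are cited.

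Genes with 10 or more normalized counts in 3 or more libraries (15258) were fitted as log2(value + 1) with limma 3.58.1 (trend and robust variance, R 4.3.3), with Benjamini-Hochberg adjustment over all of them and a threshold of 0.05. Fold changes are on this scale, which understates changes of low genes. A second fit subtracted each library's mean of 28 pan-endothelial genes. The limma step was tested on simulated counts with the same spread setting for all genes and no library set apart. That test does not cover a library such as control 4. Alternatives were other pseudocounts, filters and scalings, edgeR 4.0.16 and DESeq2 1.42.0 on the recovered reads, limma-voom, leaving out each library and a replicate block. Lengths and positions came from GENCODE M21 and promoters from RefSeq GRCm38.p6.

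The 32 genes and all lists were chosen with earlier results of these data known. The rule for named genes took all 32 and up to 3 genes per other list by p-value. It gave values by library for genes called or not overlapping, and those of further members were added after their values were seen.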

Additional observations from a re-analysis of the deposited data

How the results depend on the processing

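Of the 32 genes, 2 were called lower by limma with scaling to library totals (2.04% of all genes), 13 by DESeq2 (8.40%) and 14 by limma-voom (10.1%), and 2 to 16 when 1 library was left out (1.04% to 7.19%). No alternative called any higher. The median log2 fold change was -0.63 with scaling to library totals and ran from -1.003 (without control 4) to -0.63 (without control 2) with 1 library left out. Relative to the 28 reference genes, leaving out 1 library gave 0 to 1 called lower (0.113% to 0.727% of all genes) and 0 to 2 called higher (13.7% to 55.8%), and the median of the reference gave 0 higher (17.8%). With the replicate block 10 genes were called lower (2.55% of all genes, median -1.003), Fabp4 not among them, and 1 relative to the reference (0.334%). Deviations of same-numbered libraries had correlations of -0.27, -0.21 and -0.08, and those of differently numbered libraries ran from -0.48 to 0.45. With 4 and 3 libraries these values cannot show whether a shared number marks a pair. Control 4 has no partner in that block. Signs turned for Klf2 (0.13 by limma-voom, -0.54 to 0.13 with 1 library left out), Vwf (-0.11 by limma-voom, -0.0011 to 0.29) and Eng (-0.52 to 0.010), and for the pairs Tek/Tie1 (-0.22 to 0.012), Nrp1/Nrp2 (-0.11 to 0.26) and Sox17/Sox18 (-0.30 to 0.37). The cause was not tested.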

Other observations

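Endothelial genes outside the 32 did not all move one way. Of 4 adhesion genes that inflamed endothelium displays to leukocytes, 3 were called higher by limma. They were Vcam1 (1066 ± 469 to 4382 ± 1881 normalized counts, log2 fold change 2.07, adjusted p = 0.00896), Icam1 (1.86, adjusted p = 0.0209) and Selp (1.53, adjusted p = 0.0427). Sele had -0.59 (limma adjusted p = 0.265). Leukocytes and platelets also express some of these genes, and their part was not tested.

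Of 4 venous genes tested 3 were below 0 (median log2 fold change -0.43) and 1, Tmem252, was called higher (1.83, limma adjusted p = 0.0178) from a low level (42.4 ± 18.2 to 148 ± 49.0 normalized counts). Ephb4, far more abundant (4809 ± 1177 to 3015 ± 268 normalized counts), had -0.64 (limma adjusted p = 0.104). Of 3 endocardial genes tested, Cytl1 was lower (-2.77, limma adjusted p = 0.00365) and Nfatc1 higher (1.14, limma adjusted p = 0.0234). Npr3 had -0.61 (limma adjusted p = 0.195). Leukocyte markers were higher in ICI-myocarditis too, and the part of leukocytes in Nfatc1 was not tested. Of 7 lymphatic genes tested 1, Prox1, the lymphatic fate factor, was lower (-1.05, limma adjusted p = 0.0461). Pdpn had 0.79 (limma adjusted p = 0.133), and Flt4, Mmrn1 and Reln had -0.07, -0.26 and -0.30. In controls 1 to 4 Prox1 was at 2933, 1464, 2441 and 3343 normalized counts and the cardiomyocyte gene Ryr2 at 208425, 102219, 149350.3 and 189824, both lowest in control 2, and the part of cardiomyocytes in Prox1 was not tested. Of 6 genes of sprouting tip cells none was called by limma and 4 were lower at an unadjusted p under 0.05, with a median log2 fold change of -0.96. Of 4 mesothelial genes none was called, with none at an unadjusted p under 0.05.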
